A study of Mus musculus with 9 samples.

Results

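The cytochrome P450 genes of families 1, 2 and 3 were described in mouse liver: all rows of the deposited expression tables whose symbol is Cyp, a family number of 1, 2 or 3, a subfamily letter and a gene number. The rule took 58 of the 23444 rows, with 3 genes of family 1, 48 of family 2 and 7 of family 3, in 16 subfamilies. A further 5 P450 rows with a longer suffix, such as pseudogenes and lettered copies, were outside it. RNA was sequenced from livers of C57Bl6 mice in 9 libraries, 3 per group. The first group was mice of 20 to 22 months fed chow with PD-0332991 for 2 weeks before the tissue was taken, the second was mice of 20 to 22 months on standard chow, and the third was mice of 2 months on standard chow. PD-0332991 is palbociclib, which blocks CDK4 and CDK6, kinases that drive entry into the cell cycle, and the labels give its amount in the chow as 450 mg/k. The labels state neither the sex of the mice, nor the hour of collection, nor whether each library was made from a different mouse, so each p-value measures the spread between libraries, which may be technical. In this bulk tissue, fewer cells of a type and less RNA per cell cannot be told apart.

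Cytochrome P450 enzymes carry a heme group and insert an oxygen atom into their substrates, with electrons handed over by the reductase encoded by Por. Families 1 to 3 hold most of the enzymes that clear drugs, pollutants and steroid hormones in the liver, and many members also oxidise arachidonic acid and other fatty acids. Their genes are switched on by receptors that sense foreign compounds: AHR acts on the Cyp1 genes, CAR on Cyp2b10 and PXR on Cyp3a11. In mice several Cyp2 and Cyp3a genes also follow the sex-specific rhythm of growth hormone, and many members are made mainly by hepatocytes around the central vein. The subfamilies grew by gene duplication, so neighbouring genes can be near-identical.

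Because 3 of the 5 genes that differed with age are Cyp2c copies, the DNA just before 4 Cyp2c genes is shown. The first pair is Cyp2c37 and Cyp2c50, near copies with Cyp2c54 between them, of which only Cyp2c37 passed the test. The second is a pair of near copies that were both lower in aged livers. Each line gives the 100 bases before the annotated start, read 5′ to 3′ on the gene's strand, from RefSeq on GRCm38.p6. Capitals mark the letters CAAAGTNCA, the core to which the liver factor HNF4 alpha binds, a motif picked after the sequences had been read.
Cyp2c37: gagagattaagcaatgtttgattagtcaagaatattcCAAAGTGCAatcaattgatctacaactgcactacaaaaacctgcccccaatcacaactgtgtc
Cyp2c50: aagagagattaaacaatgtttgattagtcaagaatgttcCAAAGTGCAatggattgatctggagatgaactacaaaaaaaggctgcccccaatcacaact
Cyp2c40: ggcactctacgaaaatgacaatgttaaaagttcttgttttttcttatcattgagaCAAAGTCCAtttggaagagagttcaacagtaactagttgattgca
Cyp2c69: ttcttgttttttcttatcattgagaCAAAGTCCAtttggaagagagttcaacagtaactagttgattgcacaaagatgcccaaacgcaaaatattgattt
The Cyp2c37 stretch lies at chr19:39992324-39992423 and the Cyp2c50 stretch at chr19:40089579-40089678, both on the plus strand. The Cyp2c40 stretch lies at chr19:39812815-39812914 and the Cyp2c69 stretch at chr19:39886770-39886869, both on the minus strand. Over the 250 bases before the start, 84.3% of aligned positions were identical between Cyp2c37 and Cyp2c50, and 77.5% between Cyp2c40 and Cyp2c69. A closer match to Cyp2c69 was Cyp2c68, with 91.3%, and Cyp2c68 was not called with age (limma log2 difference −0.24, adjusted p = 0.449). The printed stretches of Cyp2c40 and Cyp2c69 hold 70 identical bases in a row, set off from each other by the place of the annotated start.

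Promoter windows running from 250 bases before to 50 bases after the start were found for 50 of the 58 genes. On either strand, CAAAGTNCA stood in 12 of these 50 windows (24.0%), 8 of them Cyp2c, 3 Cyp3a and 1 Cyp2d, against 1.41% of all 27025 promoters in the RefSeq table. Since the motif was picked from these sequences and the copies share ancestry, the share is a description. The TATA box letters TATAAA stood in 25 of the 50 (50%), against 14.16% of all promoters. The C/EBP core TTGCNNAA was in 14 (28%), against 10.75%. The AHR core TNGCGTG was in 1, Cyp2c68 (2.0%), against 5.12%, and the direct repeat with a spacer of 4 (DR4) used by PXR and CAR was in 1, Cyp3a11 (2.0%), against 0.13%. The STAT letters TTCNNNGAA were in 2 (4.0%), against 8.47%, and the HNF1 motif in 0, against 0.44%. Motifs were searched one by one, so a base could count for more than 1, and a window without the letters says nothing of the factor.

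Values are TPM, the length-corrected transcript abundances deposited by the authors, which can be compared between genes but keep no sequencing depth. Listed rows held 53.1% to 57.6% of each library's whole TPM, so other transcripts had been quantified too. Alb, the defining hepatocyte gene, was listed at 0 in all 9 libraries, while the other 13 of 14 hepatocyte markers passed the filter described next. A value of 0 is therefore read only as listed at 0. The filter kept genes that reached 1 TPM in 3 or more libraries; they were tested with limma on log2(TPM + 0.5), a scale that understates the change of low genes, and those with a Benjamini-Hochberg adjusted p under 0.05 over all 10161 tested genes were called.

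Of the 58 genes, 34 passed the filter and 24 did not. Of the 34, 32 reached 1 TPM in all 9 libraries, and 0 reached it in 1 group only. Among the 24, 7 were listed at 0 in every library: Cyp2b19, Cyp2b23, Cyp2c66, Cyp2j11, Cyp2j12, Cyp2j13 and Cyp2w1. The other 17 were low, such as Cyp1b1, an enzyme mostly of other tissues, with 0.176, 0.0185 and 0.196 TPM in PD-0332991 livers, 0.168, 0.247 and 0.0187 TPM in aged untreated livers and 0.0777, 0.0387 and 0.104 TPM in young livers. Cyp2g1, known from the nasal lining, had 0.839, 0.556 and 0.425 TPM in PD-0332991 livers, 0.860, 0.627 and 1.74 TPM in aged untreated livers and 0.700, 0.699 and 0.457 TPM in young livers. Cyp2s1, known from epithelia outside the liver, had 0.195, 0.148 and 0.193 TPM in PD-0332991 livers, 0.0167, 0.299 and 0.0461 TPM in aged untreated livers and 0.477, 0.265 and 0.107 TPM in young livers. Cyp2t4 was above 0 only in PD-0332991 replicate 2 (0.279 TPM) and aged untreated replicate 1 (0.105 TPM). For Cyp1b1, Cyp2g1, Cyp2s1 and Cyp2t4 the groups overlapped.

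Together the 58 genes summed to 10951 ± 642 TPM in PD-0332991 livers, 12246 ± 1286 TPM in aged untreated livers and 11210 ± 678 TPM in young livers (mean ± SD, n = 3 each), which is 1.84% to 2.48% of the listed TPM per library. Just 3 genes made up 51.5% of the sum over the 9 libraries: Cyp3a11 with 22.4%, Cyp2e1 with 20.8% and Cyp2c29 with 8.26%. Next in order of mean level were Cyp2d9 with 755 TPM, Cyp2f2 with 693, Cyp2d10 with 480, Cyp2d26 with 476 and Cyp2c50 with 424. Of the 58, 17 were at or above 100 TPM in all libraries. By subfamily, Cyp3a held 24.7% of the sum, Cyp2c 22.4%, Cyp2e 20.8%, Cyp2d 16.8%, Cyp2f 6.05%, Cyp2a 5.15%, Cyp1a 2.54% and Cyp2j 1.40%.

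**Figure D1:**
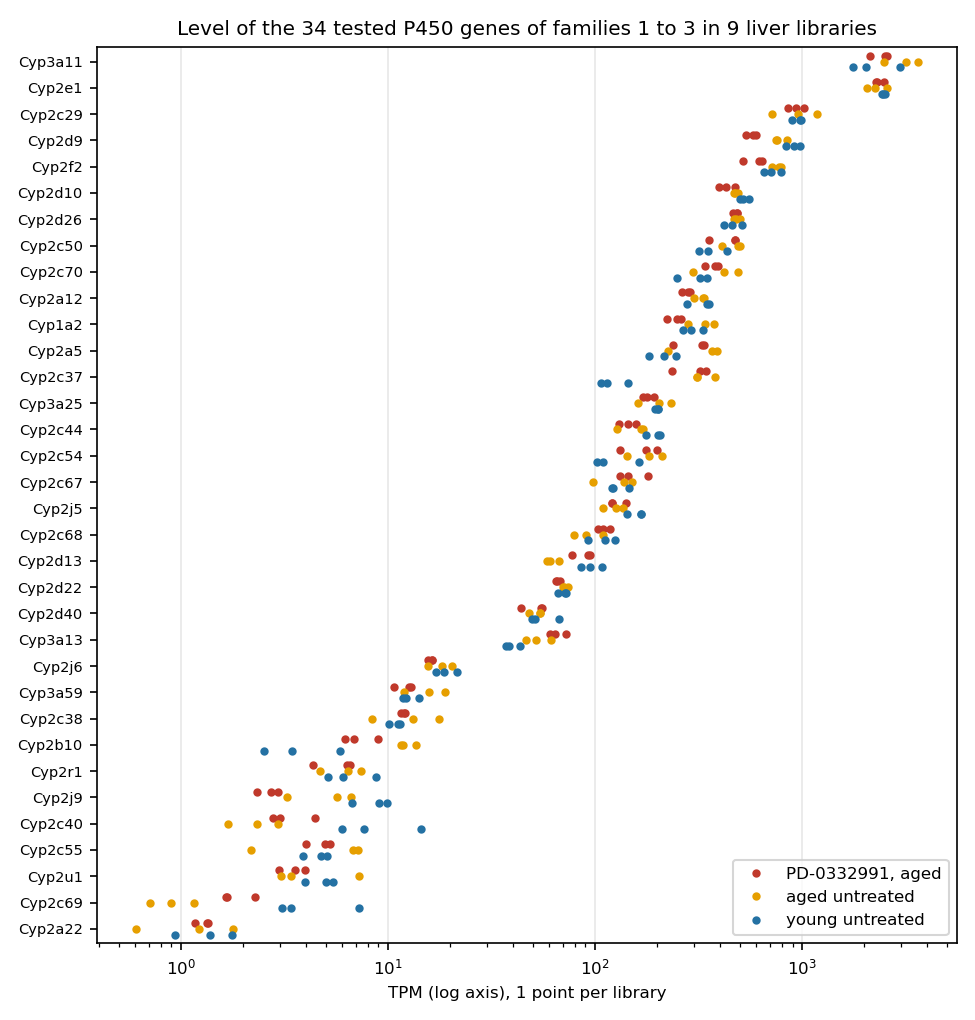
TPM on a log axis of the 34 tested genes, 1 point per library, in aged PD-0332991 (red), aged untreated (orange) and young untreated (blue) livers, ordered by mean level. Mean levels run from 1.29 TPM for Cyp2a22 up to 2372 TPM for Cyp2e1 and 2591 TPM for Cyp3a11, and for 21 of the 34 genes the highest library was under 2 times the lowest.

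How far the reads of near copies can be told apart was read from the transcripts. For each gene, the longest coding transcript of GENCODE M21 (GRCm38) was cut into all stretches of 31 bases, and the share found in no other gene was counted. Of the 57 genes with a transcript there, 22 had over 90% of stretches of their own and 8 had under 50%. Cyp2d13 had no transcript there, so the sequence it shares with other genes was not measured. Cyp2c40 had the least of its own, 15.5%, and shared 53.3% with Cyp2c67 and 53.0% with Cyp2c69. Cyp2c69 had 34.1% of its own, Cyp2c37 52.6%, Cyp2d9 53.6% and Cyp2b10 78.4%, while Cyp2j9 had 95.7% and Cyp3a13 99.8%. Where the share is low, the authors' quantification could have moved reads between copies, so single values of those genes are uncertain. Sums over linked copies are given only for Cyp2c37, Cyp2c40 and Cyp2c69, in the comparisons where they were called.

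**Figure D2:**
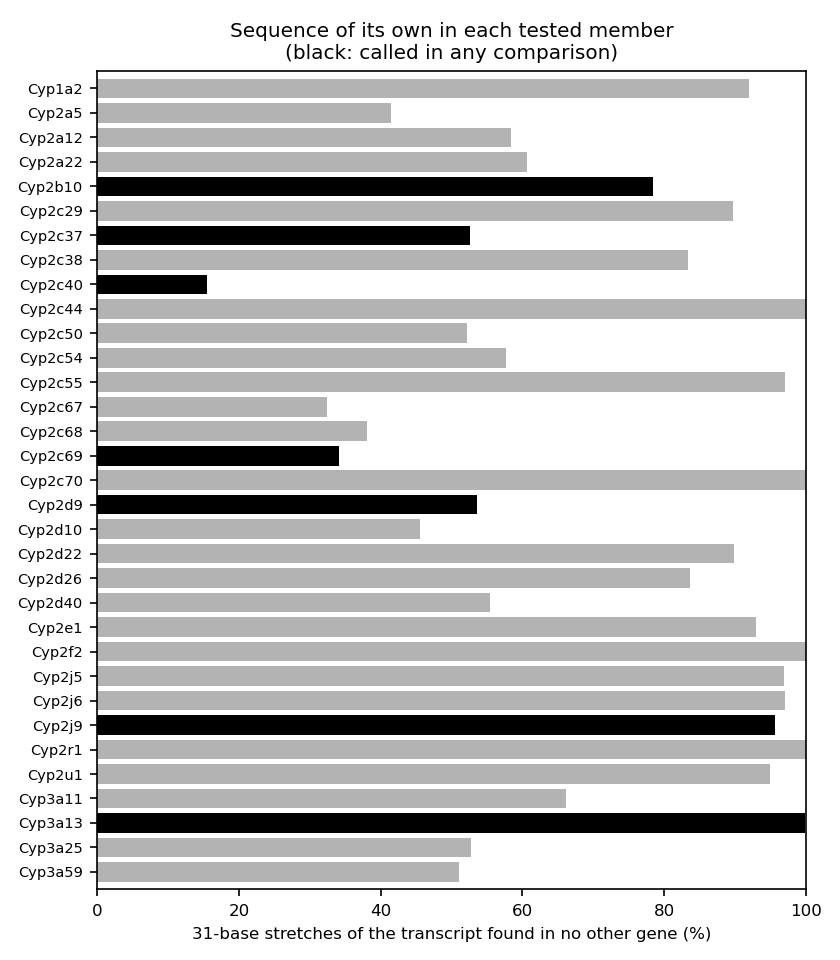
Share of the 31-base stretches of each gene's transcript that occur in no other gene, in percent, for the 33 tested genes with a GENCODE transcript; black bars are genes called in any comparison. Cyp2c40 has the shortest bar at 15.5%, and Cyp3a13 reaches 99.8%.

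The comparison of PD-0332991 with aged untreated livers asked what the inhibitor did to these genes in old animals. Cyp2d9, which in male mice hydroxylates testosterone at the 16 alpha position, was the only gene called, and it was lower with PD-0332991. It had 537, 597 and 577 TPM in PD-0332991 livers, against 752, 851 and 759 TPM in aged untreated livers. All 3 treated libraries lay below all 3 untreated ones. The means were 570 ± 30.4 TPM in PD-0332991 livers and 787 ± 55.2 TPM in aged untreated livers (SD, n = 3 each), a log2 ratio of −0.46 ± 0.10 (SE; limma, adjusted p = 0.0395). The gene lies at chr15:82452377-82456827, in a cluster of Cyp2d copies.

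In that comparison 1 of the 34 tested genes was called (2.94%), beside 1.45% of all genes tested, with 0 higher (beside 0.61%) and 1 lower (beside 0.837%), so the count was near the background. At an unadjusted p under 0.05 there were 8 of 34 (23.5%), beside 18.2% of all genes. The Cyp2d9 call rested on its exact setting: leaving out any treated library gave limma adjusted p-values of 0.105 to 0.121, leaving out aged untreated replicate 2 gave 0.131, and scaling by the median of gene ratios gave −0.37 (adjusted p = 0.0797). That scaling also turned the split of all calls from 62 higher and 85 lower to 109 higher and 56 lower, quantile normalization gave 88 higher and 56 lower, and the median over all genes moved by 0.09 on the log2 scale.

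Of the 6 tested Cyp2d genes, 1 had a log2 difference above 0 with PD-0332991, beside 33.3% of all tested genes, and that gene was Cyp2d13. Cyp2d13, which RefSeq lists as a transcribed pseudogene at chr15:82636750-82642045, had 77.5, 92.6 and 95.0 TPM in PD-0332991 livers, against 58.8, 60.4 and 67.1 TPM in aged untreated livers. The groups did not overlap, with a log2 difference of 0.50 ± 0.12 (limma, adjusted p = 0.0571), which missed the threshold. It passed with median-of-ratios scaling (0.60, adjusted p = 0.0313) and without aged untreated replicate 3 (0.56, adjusted p = 0.0303). Cyp2d10 averaged 435 ± 39.2 TPM in PD-0332991 livers and 478 ± 12.8 TPM in aged untreated livers, and Cyp2d26 differed by −0.01 (adjusted p = 0.967). Cyp2d22 was lower without overlap (limma log2 difference −0.12, adjusted p = 0.492), while the groups of Cyp2d40 overlapped, and both were likewise not called.

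Among targets of the foreign-compound receptors, 0 were called between PD-0332991 and aged untreated livers. Cyp1a2, which clears caffeine and is an AHR target, had 222, 249 and 262 TPM in PD-0332991 livers, against 282, 339 and 377 TPM in aged untreated livers. The groups did not overlap, and the log2 difference was −0.44 (limma, adjusted p = 0.109). It passed only without aged untreated replicate 1 (−0.55, adjusted p = 0.0499). Cyp2b10, the standard CAR target, had 6.18, 8.99 and 6.85 TPM in PD-0332991 livers, against 11.5, 13.7 and 11.8 TPM in aged untreated livers. It also showed no overlap, with a log2 difference of −0.72 ± 0.24 (limma, adjusted p = 0.152). Cyp3a11, the main PXR target, had 2130, 2588 and 2530 TPM in PD-0332991 livers, against 2490, 3631 and 3165 TPM in aged untreated livers. The groups overlapped (−0.35, adjusted p = 0.368).

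Further genes lay apart between the groups without a call. Cyp2j9, an arachidonic acid oxidase first known from brain, had 2.95, 2.34 and 2.73 TPM in PD-0332991 livers, against 3.26, 6.64 and 5.67 TPM in aged untreated livers. Its groups did not overlap, though aged untreated replicate 1 lay close to the treated libraries, and the log2 difference was −0.80 (limma, adjusted p = 0.107), or −1.07 without that replicate (adjusted p = 0.0245). Cyp2c69 averaged 1.87 ± 0.364 TPM in PD-0332991 livers and 0.919 ± 0.225 TPM in aged untreated livers, without overlap (0.74, adjusted p = 0.181). Cyp2f2, which activates naphthalene and in liver belongs to cells around the portal vein, had 642, 622 and 521 TPM in PD-0332991 livers, against 774, 718 and 796 TPM in aged untreated livers, again without overlap (−0.36, adjusted p = 0.12).

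Several abundant enzymes differed little with PD-0332991. Cyp2e1, which oxidises ethanol and activates paracetamol, had 2302, 2486 and 2277 TPM in PD-0332991 livers, against 2248.5, 2561 and 2062.5 TPM in aged untreated livers, with overlap (limma log2 difference 0.04, adjusted p = 0.844). Cyp2c29, an epoxygenase, had 854, 935 and 1024 TPM in PD-0332991 livers, against 720, 1187 and 959 TPM in aged untreated livers. The treated libraries all fell inside the range of the untreated ones. Cyp2c37 had 235, 323 and 342 TPM in PD-0332991 livers, against 312, 382 and 309 TPM in aged untreated livers (−0.17, adjusted p = 0.617).

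Over all 34 tested genes the median log2 difference between PD-0332991 and aged untreated livers was −0.09, the same as the −0.09 over all genes, and 30 of the 34 lay within 0.5 of 0. Without overlap between the groups, 2 were higher (5.88%, beside 5.72% of all genes) and 7 lower (20.6%, beside 16.7%). The 2 higher were Cyp2c69 and Cyp2d13, and the 7 lower were Cyp1a2, Cyp2a12, Cyp2b10, Cyp2d9, Cyp2d22, Cyp2f2 and Cyp2j9. As deposited, 9 of the 34 were above 0 and 25 below it, and with median-of-ratios scaling 17 were above and 17 below.

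**Figure D3:**
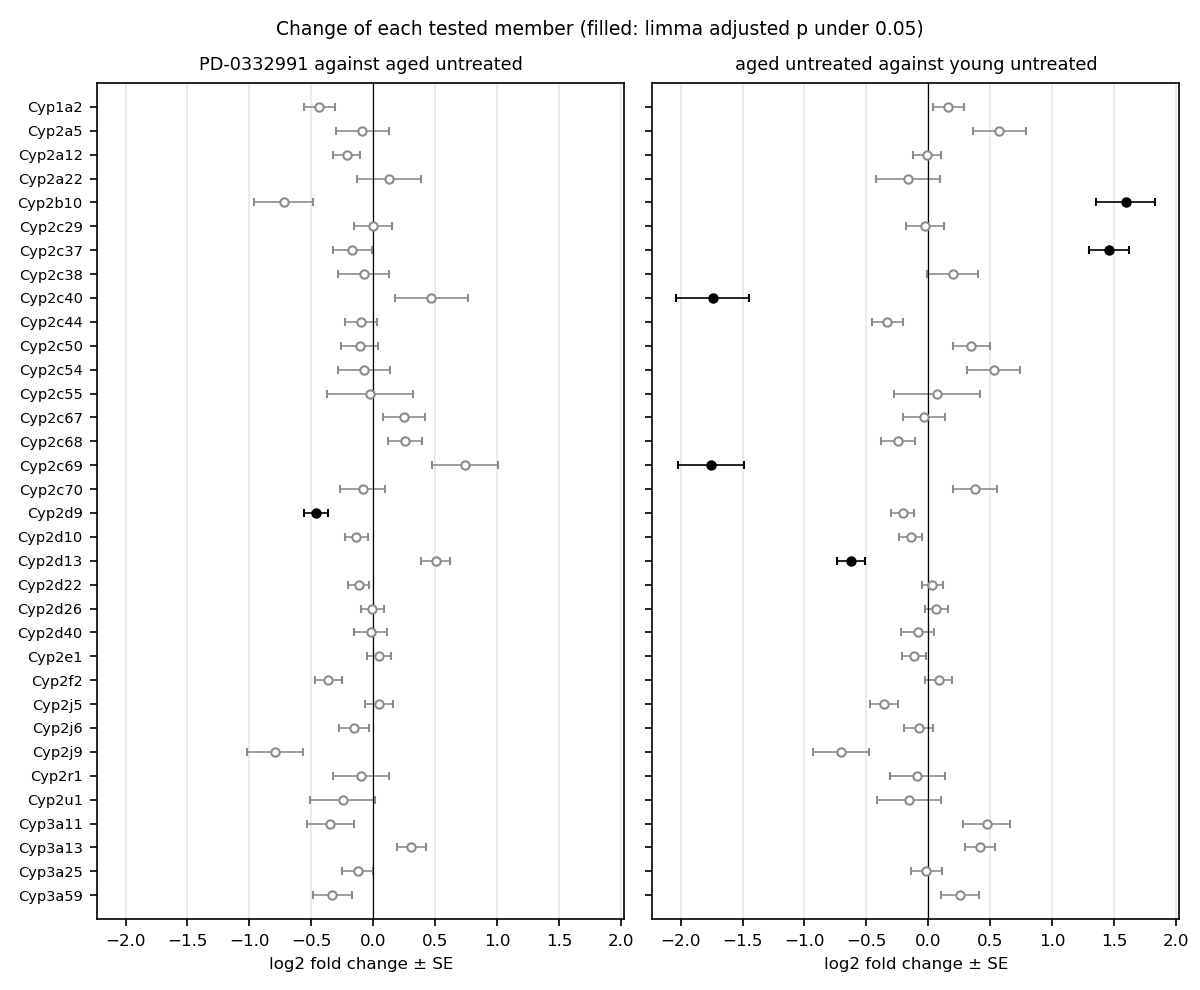
Log2 fold change ± SE of each tested gene, grouped by subfamily, for PD-0332991 against aged untreated livers (left) and aged untreated against young untreated livers (right); filled points are called by limma. On the left only Cyp2d9 is filled, and on the right 5 genes are, with Cyp2c37 and Cyp2b10 above 0 and Cyp2c40, Cyp2c69 and Cyp2d13 below it.

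The comparison of aged untreated with young untreated livers asked how the genes differ between the ages without the drug. A difference "with age" is one between these groups, whose hour of collection the labels do not give. Aged livers had more RNA of Cyp2b10 and Cyp2c37 and less of Cyp2c40, Cyp2c69 and Cyp2d13. These were 5 of the 34 tested genes (14.7%), beside 1.1% of all genes tested, with 2 higher (5.88%, beside 0.65%) and 3 lower (8.82%, beside 0.453%). Without the filter on low values, and with the 6 libraries of this comparison alone, 3 were called, and leaving out single libraries gave 2 without aged untreated replicate 1, 3 without aged untreated replicate 2, young replicate 1 or young replicate 3, 4 without young replicate 2 and 7 without aged untreated replicate 3.

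Cyp2c37, a mouse enzyme that makes 12-HETE from arachidonic acid, had the smallest adjusted p of the 5. It had 312, 382 and 309 TPM in aged untreated livers, against 114, 144 and 107 TPM in young livers. Every aged library was more than double any young one in the plot of called genes. The means were 334 ± 41.1 TPM in aged untreated livers and 122 ± 19.4 TPM in young livers (SD, n = 3 each), 2.75 times as much, with a log2 ratio of 1.46 ± 0.16 (limma, adjusted p = 0.00407). The gene spans chr19:39992424-40012243.

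The near copies of Cyp2c37 on one side of it, Cyp2c54 and Cyp2c50, were not called. Cyp2c69, the nearest of the 58 genes on its other side, was called lower. Cyp2c50, with the similar promoter printed above, averaged 467 ± 48.9 TPM in aged untreated livers and 369 ± 61.3 TPM in young livers (limma log2 difference 0.35, adjusted p = 0.307), and Cyp2c54 differed by 0.53 (adjusted p = 0.282). Cyp2c37 shares 34.2% of its 31-base stretches with Cyp2c50 and 28.2% with Cyp2c54. The 3 copies summed to 980 ± 114 TPM in aged untreated livers and 615 ± 112 TPM in young livers, and the ranges did not overlap. Within that sum Cyp2c37 took 36.0%, 34.9% and 31.5% in aged untreated livers, against 21.4%, 19.4% and 18.8% in young livers, so its share as well as its level lay apart. Whether the copies differ in their change was not tested.

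Cyp2b10, which encodes an enzyme of barbiturate response, had 11.5, 13.7 and 11.8 TPM in aged untreated livers, against 2.53, 5.86 and 3.43 TPM in young livers. The groups did not overlap, and young replicate 2 was the highest young library. The means were 12.3 ± 1.19 TPM in aged untreated livers and 3.94 ± 1.72 TPM in young livers, a log2 ratio of 1.60 ± 0.24 (limma, adjusted p = 0.0133). Leaving out young replicate 1 gave an adjusted p of 0.0514 and leaving out young replicate 3 gave 0.057. The other Cyp2b genes were near 0: Cyp2b9, a female-predominant copy, reached 1.24 TPM in aged untreated replicate 2 and 1.36 TPM in PD-0332991 replicate 2, and Cyp2b13 at most 0.163 TPM in any library.

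The other Cyp2c calls with age went the opposite way. Cyp2c40, which makes 16-HETE in the mouse, had 1.68, 2.33 and 2.96 TPM in aged untreated livers, against 6.03, 14.4 and 7.68 TPM in young livers. Cyp2c69 had 0.895, 1.16 and 0.706 TPM in aged untreated livers, against 3.06, 7.22 and 3.41 TPM in young livers. For both genes the groups did not overlap, and young replicate 2 was again the highest library. The log2 fold changes were −1.74 ± 0.30 for Cyp2c40 (limma, adjusted p = 0.0276) and −1.76 ± 0.27 for Cyp2c69 (adjusted p = 0.0133).

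Both are low-level near copies of far more abundant genes, so this result needs the sums beside it. Cyp2c40, Cyp2c67, Cyp2c68 and Cyp2c69 together had 225 ± 43.0 TPM in aged untreated livers and 254 ± 27.2 TPM in young livers, and the ranges overlapped. Cyp2c40 and Cyp2c69 made up 1.44%, 1.32% and 1.58% of that sum in aged untreated livers, against 4.08%, 8.0% and 4.12% in young livers. Whether reads moved between these copies was not tested. The Cyp2c40 call was lost without aged untreated replicate 1 (limma adjusted p = 0.093), aged untreated replicate 2 (0.0879) or young replicate 3 (0.0659), and the Cyp2c69 call without aged untreated replicate 1 (0.0534).

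Cyp2d13, whose shared sequence was not measured, was the fifth gene called with age. It had 58.8, 60.4 and 67.1 TPM in aged untreated livers, against 108, 94.3 and 86.0 TPM in young livers. The groups did not overlap, with a log2 ratio of −0.62 ± 0.12 (limma, adjusted p = 0.0323). It missed the threshold without aged untreated replicate 1 (0.115) or 2 (0.0894), or without young replicate 1 (0.14) or 2 (0.0954). Cyp2d9, called in the drug comparison, had 752, 851 and 759 TPM in aged untreated livers, against 917, 835 and 976 TPM in young livers, with overlap (−0.21, adjusted p = 0.338).

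**Figure D4:**
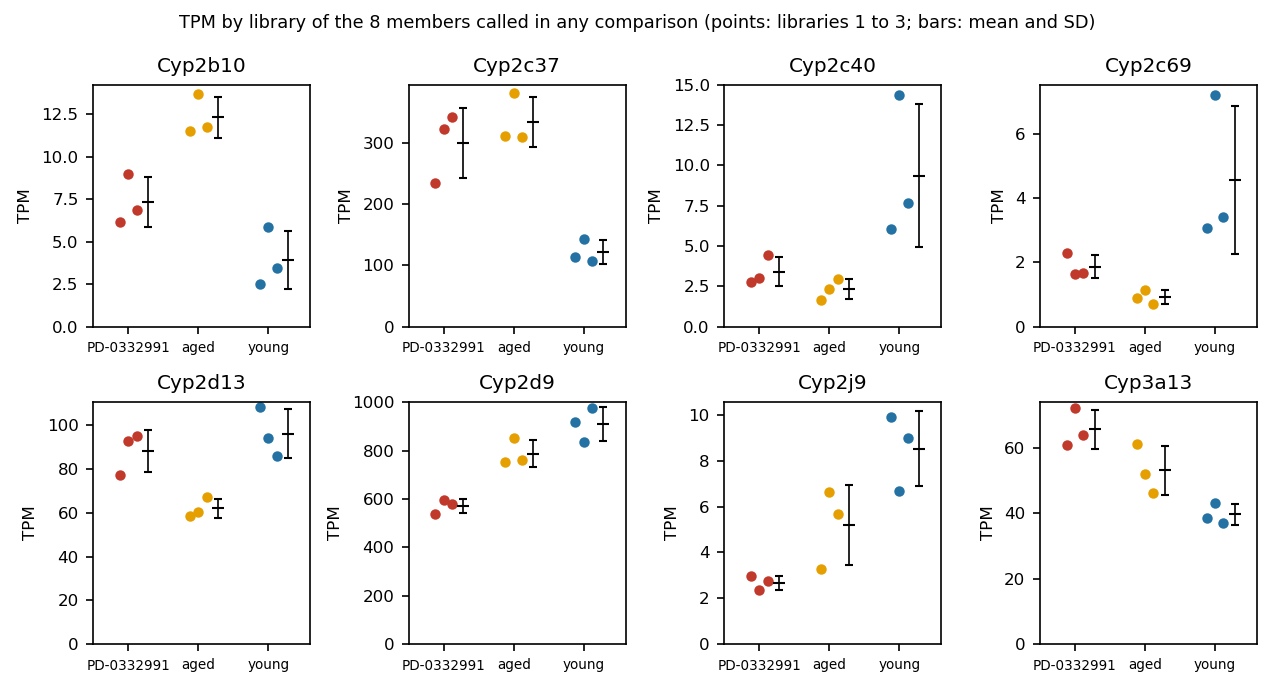
TPM by library of the 8 genes called in any of the 3 comparisons, with aged PD-0332991, aged untreated and young untreated livers from left to right; points are libraries, bars the mean and SD of 3. Cyp2c37 stands at 107 to 144 TPM in young livers and at 235 to 382 TPM in both aged groups, and Cyp2d9 at 537 to 597 TPM in PD-0332991 livers, below the other groups.

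Genes not called between aged untreated and young livers included most of the abundant enzymes. Cyp3a11 had 2490, 3631 and 3165 TPM in aged untreated livers, against 2038, 1771 and 2978 TPM in young livers, where replicate 3 stood well above the others (limma log2 difference 0.47, adjusted p = 0.287). Cyp2e1 had 2248.5, 2561 and 2062.5 TPM in aged untreated livers, against 2515.5, 2467 and 2429.7 TPM in young livers (−0.11, adjusted p = 0.62). On average Cyp2e1 stood above Cyp3a11 in young livers, and below it in both aged groups. Cyp1a2 had 282, 339 and 377 TPM in aged untreated livers, against 291, 333 and 265 TPM in young livers (0.16, adjusted p = 0.586). Cyp2c29 had 720, 1187 and 959 TPM in aged untreated livers, against 977, 898 and 984 TPM in young livers (−0.02, adjusted p = 0.962). For these 3 genes, as for Cyp2f2, the groups overlapped. Cyp2f2 had 774, 718 and 796 TPM in aged untreated livers, against 710.4, 655 and 795 TPM in young livers (0.09, adjusted p = 0.772).

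Cyp2a5, the mouse coumarin hydroxylase, averaged 326 ± 87.8 TPM in aged untreated livers and 215 ± 32.0 TPM in young livers (limma log2 difference 0.57, adjusted p = 0.256), and it shares 48.2% of its stretches with Cyp2a4, which reached at most 0.497 TPM. Cyp2a12, a bile acid and steroid hydroxylase, had 264, 288 and 282 TPM in PD-0332991 livers, 301, 336 and 333 TPM in aged untreated livers and 277, 356 and 348 TPM in young livers, and was called in no comparison. Its treated libraries lay below all aged untreated ones (limma log2 difference −0.21, adjusted p = 0.321). Cyp2c70, which makes muricholic acids in mice, averaged 402 ± 97.3 TPM in aged untreated livers and 306 ± 51.7 TPM in young livers (0.38, adjusted p = 0.355). Cyp2j5, an epoxygenase of kidney and liver, had 121, 121 and 141 TPM in PD-0332991 livers, 109, 127 and 136 TPM in aged untreated livers and 142, 167 and 167 TPM in young livers. All 3 aged untreated libraries lay below the young ones (−0.36, adjusted p = 0.171).

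A pair of low-level enzymes with defined tasks varied between libraries without a call. Cyp2r1, the vitamin D 25-hydroxylase, had 6.35, 4.33 and 6.52 TPM in PD-0332991 livers, 4.67, 6.44 and 7.45 TPM in aged untreated livers and 5.13, 8.78 and 6.06 TPM in young livers. The 3 groups overlapped. Cyp2u1, a fatty acid hydroxylase, had 2.98, 3.57 and 3.99 TPM in PD-0332991 livers, 3.39, 3.03 and 7.25 TPM in aged untreated livers and 5.42, 3.99 and 5.03 TPM in young livers, with aged untreated replicate 3 the highest.

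Over all 34 tested genes the median log2 difference between aged untreated and young livers was −0.02, beside −0.01 over all genes, and 26 of the 34 lay within 0.5 of 0. The range ran from −1.76 for Cyp2c69 to 1.60 for Cyp2b10. Without overlap, 3 genes were higher (8.82%, beside 8.82% of all genes) and 7 lower (20.6%, beside 9.57%), 29.4% in all, beside 18.4%.

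PD-0332991 livers were also set against young livers, a difference that holds both age and drug. It shares its libraries with the comparisons above, so the values are given side by side. Here 6 of 34 genes were called (17.6%), beside 6.88% of all genes, with Cyp2c37 and Cyp3a13 higher (5.88%, beside 2.59%) and Cyp2c40, Cyp2c69, Cyp2d9 and Cyp2j9 lower (11.8%, beside 4.29%). All calls split into 263 higher and 436 lower as deposited, 359 higher and 250 lower with median-of-ratios scaling, and 308 higher and 310 lower with quantile normalization. Leaving out any of the 3 treated libraries or young replicate 3 left 4 genes called. Over all genes, the fits without single libraries called from 151 to 473.

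Cyp3a13, a Cyp3a gene of liver and gut, had 60.9, 72.3 and 64.0 TPM in PD-0332991 livers, 61.2, 52.0 and 46.3 TPM in aged untreated livers and 38.6, 43.2 and 37.0 TPM in young livers. Young libraries lay below all others, and the treated and aged untreated ones overlapped. Its log2 fold change was 0.72 ± 0.12 between PD-0332991 and young livers (limma, adjusted p = 0.00801), while between aged untreated and young livers it was 0.41 (adjusted p = 0.134, or 0.0262 without aged untreated replicate 3). The gene lies at chr5:137892933-137925610, and 99.8% of its sequence is its own.

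Cyp2j9 was lowest in treated livers and highest in young ones, with 2.95, 2.34 and 2.73 TPM in PD-0332991 livers against 9.90, 6.70 and 9.02 TPM in young livers. The log2 fold change between them was −1.498 ± 0.23 (limma, adjusted p = 0.00555). Aged untreated livers lay between, from 3.26 to 6.64 TPM, and overlapped with neither group, at −0.70 against young livers (adjusted p = 0.176). For Cyp2d9 the log2 fold change between PD-0332991 and young livers was −0.67 ± 0.10 (limma, adjusted p = 0.00419).

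For Cyp2c37 the log2 fold change between PD-0332991 and young livers was 1.29 ± 0.16 (limma, adjusted p = 0.00225). Cyp2c40 had 2.78, 3.01 and 4.42 TPM in PD-0332991 livers, below all young libraries (−1.27, adjusted p = 0.0318). Cyp2c69 had 2.29, 1.65 and 1.67 TPM, also below them (−1.02, adjusted p = 0.0456). Summed with Cyp2c67 and Cyp2c68, these 2 genes had 267 ± 31.8 TPM in PD-0332991 livers and 254 ± 27.2 TPM in young livers, with overlap. Cyp2c37, Cyp2c50 and Cyp2c54 summed to 905 ± 159 TPM in PD-0332991 livers and 615 ± 112 TPM in young livers. Those ranges overlapped too, with 721 TPM in PD-0332991 replicate 1 and 742 TPM in young replicate 2. The Cyp2c40 call was lost without any treated library (adjusted p from 0.052 to 0.119), young replicate 2 (0.0643) or young replicate 3 (0.0759), and the Cyp2c69 call when any of the 6 libraries was left out (0.0555 to 0.152). Cyp2b10 was at 0.87 (adjusted p = 0.0535), and at 1.17 without young replicate 2 (adjusted p = 0.0166). Cyp2e1 was at −0.07 (adjusted p = 0.698), and at −0.51 with quantile normalization, which called it lower (adjusted p = 0.0117).

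Between PD-0332991 and young livers the median over the 34 was −0.08, beside −0.10 over all genes, and 27 lay within 0.5 of 0. Without overlap, 4 were higher (11.8%, beside 9.55% of all genes) and 12 lower (35.3%, beside 24.4%). Below the filter, Cyp1a1, the most inducible AHR target, was listed at 0.0867, 0.143 and 0.132 TPM in PD-0332991 livers, 0.150, 0.211 and 0.300 TPM in aged untreated livers and 0.622, 0.549 and 0.455 TPM in young livers, so young libraries lay above both aged groups at a very low level. Without the filter it was called lower between PD-0332991 and young livers (limma log2 difference −0.75, adjusted p = 0.02), and not with age (−0.53, adjusted p = 0.124). Cyp2j8 was listed at 0, 0.0263 and 0 TPM in PD-0332991 livers, at 0 in every aged untreated library and at 0.393, 0.245 and 0.0849 TPM in young livers.

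**Figure D5:**
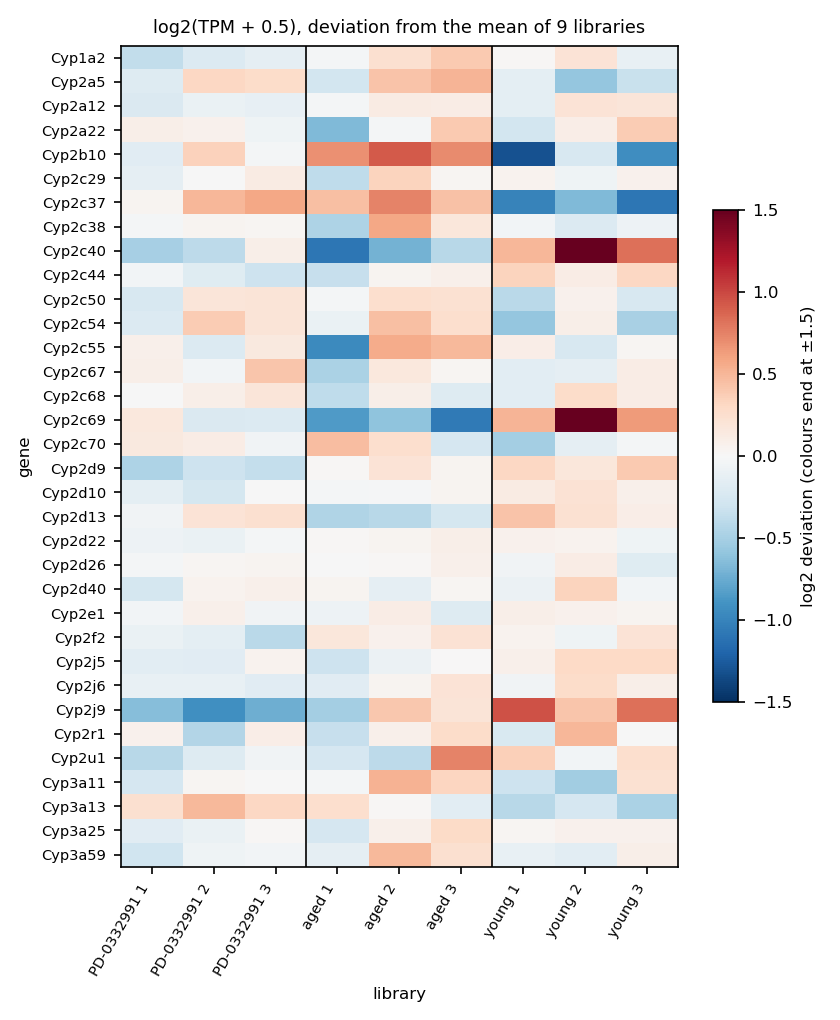
Deviation of log2(TPM + 0.5) from the mean of the 9 libraries for each tested gene, libraries of PD-0332991, aged untreated and young untreated livers from left to right; red is above and blue below the mean. Cyp2c37 and Cyp2b10 are blue in young livers, and Cyp2c40, Cyp2c69 and Cyp2j9 red there, while most rows stay pale.

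Receptors and transcription factors that drive these genes were read next. Nr1i2, which encodes PXR, averaged 25.3 ± 4.10 TPM in PD-0332991 livers, 21.5 ± 4.85 TPM in aged untreated livers and 22.2 ± 2.78 TPM in young livers. Nr1i3, which encodes CAR, averaged 34.7 ± 8.11 TPM in PD-0332991 livers, 41.9 ± 7.44 TPM in aged untreated livers and 50.5 ± 8.76 TPM in young livers, and neither was called in any comparison.

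Ahr had 5.48, 6.82 and 5.61 TPM in PD-0332991 livers, 4.10, 4.62 and 4.55 TPM in aged untreated livers and 3.36, 2.68 and 4.13 TPM in young livers. Treated livers lay above both other groups, and Ahr was called between PD-0332991 and young livers (limma log2 fold change 0.75, adjusted p = 0.0182). Of the 20 tested receptors and liver transcription factors, 1 was higher and 0 lower with PD-0332991 in aged livers (beside 1.45% called over all genes), 0 higher and 1 lower with age (beside 1.1%), and 2 higher and 1 lower between PD-0332991 and young livers (beside 6.88%).

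The gene behind both single calls was Ppara, the fatty acid receptor that also drives Cyp4a genes. It averaged 20.7 ± 1.43 TPM in PD-0332991 livers, 11.1 ± 2.29 TPM in aged untreated livers and 20.1 ± 0.989 TPM in young livers. It was higher with PD-0332991 (limma log2 fold change 0.88, adjusted p = 0.0158) and lower with age (−0.84, adjusted p = 0.0144), comparisons that share the aged untreated libraries. Besides Ahr, Nr0b2 was higher and Foxa1 lower between PD-0332991 and young livers.

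Por, the electron donor of all these enzymes, had 79.0, 87.4 and 98.5 TPM in PD-0332991 livers, 85.2, 90.4 and 70.8 TPM in aged untreated livers and 59.0, 52.1 and 58.1 TPM in young livers. Both aged groups lay above the young libraries. Between PD-0332991 and young livers it was called (limma log2 fold change 0.64, adjusted p = 0.012), and between aged untreated and young livers it was at 0.53 (adjusted p = 0.0616). It was the only call among 7 electron donor genes in any comparison, beside 2.59% of all genes called higher between PD-0332991 and young livers. Alas1, the rate-limiting enzyme of heme synthesis, had 110, 145 and 137 TPM in PD-0332991 livers, 381, 313 and 45.7 TPM in aged untreated livers and 197, 172 and 235 TPM in young livers, with aged untreated replicate 3 far below the other 2. Of 12 tested heme genes the only call was Hmox1, higher in PD-0332991 than in young livers, beside the same 2.59% of all genes.

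Of 15 tested further targets of CAR and PXR, Gsta2, a glutathione transferase, was the only one called with age, beside 0.65% of all genes called higher. It averaged 70.6 ± 11.1 TPM in aged untreated livers and 38.6 ± 3.69 TPM in young livers (limma log2 fold change 0.86, adjusted p = 0.0199), and 12 of the 15 were above 0, with a median of 0.30 beside −0.01 over all genes. With PD-0332991 in aged livers 0 of the 15 were called and the median was −0.15, beside −0.09 over all genes. Of 3 tested further AHR targets, 0 were called in any comparison. Of 25 tested P450 genes of families 4 and above, 0 were called with PD-0332991 in aged livers or with age. Between PD-0332991 and young livers Cyp7b1 was higher (beside 2.59% of all genes) and Cyp7a1 lower (beside 4.29%).

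Gene lists outside P450 that can move with these enzymes gave the following values, and their part in the results above was not tested. The 24 acute phase genes summed to between 37367 and 51149 TPM in PD-0332991 livers, 16777 and 47769 TPM in aged untreated livers, and 14683 and 21660 TPM in young livers. Between PD-0332991 and young livers 5 of 24 were called higher, beside 2.59% of all genes, and 0 were called in the other comparisons. All 24 had log2 differences above 0 in each comparison. Their median was 0.45 with PD-0332991 in aged livers, beside −0.09 over all genes, and 0.66 with age, beside −0.01. Between PD-0332991 and young livers it was 1.30, beside −0.10. Markers of neutrophils, 6 listed and 3 tested, summed to between 24.8 and 34.9 TPM in PD-0332991 livers, 9.05 and 26.4 TPM in aged untreated livers and 3.23 and 4.08 TPM in young livers. The 3 tested were called higher between PD-0332991 and young livers, beside 2.59% of all genes. Aged untreated replicate 1 was the highest untreated library in both lists.

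The clock output gene Dbp had 6.99, 27.7 and 21.9 TPM in PD-0332991 livers, 0.645, 0.576 and 14.3 TPM in aged untreated livers and 14.0, 14.8 and 6.51 TPM in young livers, so aged untreated replicate 3 stood apart from the other 2 of its group, as it did for Alas1. The same library stood apart in the growth hormone response genes Cish and Socs2, named after their values were seen. Cish had 4.62, 4.69 and 3.40 TPM in PD-0332991 livers, 26.5, 34.9 and 1.28 TPM in aged untreated livers and 30.9, 32.1 and 10.4 TPM in young livers. Socs2 had 15.5, 14.4 and 8.03 TPM in PD-0332991 livers, 21.9, 48.7 and 1.02 TPM in aged untreated livers and 18.3, 21.4 and 20.5 TPM in young livers. Neither was called in any comparison. The 14 clock genes summed to between 142 and 189 TPM in PD-0332991 livers, 66.0 and 136 TPM in aged untreated livers and 91.0 and 112 TPM in young livers. Of the 13 tested, 1 was higher and 1 lower with PD-0332991 in aged livers, beside 1.45% called over all genes. With age 2 were higher and 0 lower, beside 1.1% called over all genes. Between PD-0332991 and young livers 2 were higher and 0 lower, beside 6.88%.

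Male-biased liver genes outside P450, 8 in all, summed to between 8712 and 12772 TPM in PD-0332991 livers, 12459 and 17642 TPM in aged untreated livers and 9590 and 15874 TPM in young livers. Most of that sum was a single gene, Mup20, a major urinary protein, with 10906, 7561 and 11345 TPM in PD-0332991 livers, 10911, 16034 and 13023 TPM in aged untreated livers and 7884, 8812 and 13368 TPM in young livers. It was not called, and with age the median over the 8 genes was −0.32, beside −0.01 over all genes, with 3 above 0. The 8 female-biased genes summed to at most 0.331 TPM in any library, and 2 of them were at 0 in all. Of the male-biased genes, 0 were called with PD-0332991 in aged livers, with 1 of 8 above 0 and a median of −0.40, beside −0.09 over all genes. With age 1 was higher (Susd4, beside 0.65% of all genes) and 1 lower (Keg1, beside 0.453%). Between PD-0332991 and young livers 1 was higher (Susd4, beside 2.59%) and 2 lower (Hsd3b5 and Keg1, beside 4.29%). The median there was −0.65, beside −0.10 over all genes, with 2 above 0. The 14 pericentral genes outside P450 summed to between 2159 and 2324 TPM in PD-0332991 livers, 1851 and 1963 TPM in aged untreated livers and 1613 and 1925 TPM in young livers. Of the 12 tested, 0 were called with PD-0332991 in aged livers and 1 was higher with age, beside 0.65% of all genes. Between PD-0332991 and young livers 4 of the 12 were higher, beside 2.59%.

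Markers of other cells in the tissue were counted as well. With PD-0332991 in aged livers, 0 were called among 2 tested cholangiocyte, 7 sinusoidal endothelial, 7 Kupffer cell and 10 stellate cell genes. With age, 1 cholangiocyte gene was higher (beside 0.65% of all genes), and 1 endothelial and 1 stellate cell gene were lower (beside 0.453%). Between PD-0332991 and young livers, 3 of 7 Kupffer cell genes (Clec4f, Vsig4 and Timd4), 1 of 10 stellate cell genes and 1 of 13 hepatocyte genes were lower, beside 4.29% of all genes. The 7 Kupffer cell genes summed to between 67.0 and 75.9 TPM in PD-0332991 livers, 75.4 and 113 TPM in aged untreated livers and 81.0 and 132 TPM in young livers, and their part in the P450 results was not tested. Of the 15 periportal genes, 1 was lower with PD-0332991 in aged livers (beside 0.837% of all genes) and 1 higher with age (beside 0.65%). Between PD-0332991 and young livers 1 was higher (beside 2.59%) and 1 lower (beside 4.29%). Among 8 growth hormone signalling genes the only call was 1 higher between PD-0332991 and young livers, beside 2.59% of all genes. Lymphocyte, adipocyte and erythroid genes had 0 calls in any comparison, and 0 of 6 exocrine pancreas genes passed the filter.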

How the data were processed

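Liver RNA was sequenced in 9 libraries of 3 groups, taken from the labels. Per the submitters' processing notes, the tool was kallisto and the genome mm10. Its version, the annotation and how transcripts were summed to genes are not stated in the labels or files. For each library the authors deposited 1 table of TPM, which keeps no depth, so the depth is unknown and no counting interval is given. The 58 genes and all 23 gene lists were chosen with earlier results of these data known. List genes matched by symbol for 272 of 275 entries and by synonym for 2. All 9 libraries were fitted with limma 3.58.1 (R 4.3.3; trend and robust) on log2(TPM + 0.5) for genes of at least 1 TPM in at least 3 libraries, two-sided, with Benjamini-Hochberg adjustment over 10161 genes. The step was tested on simulated data. Since the values are TPM, no count test was run. Alternatives were other pseudocounts, filters, scalings and limma settings, a replicate block, the libraries of a comparison alone, and leaving out each library. The rule gave the value in every library for genes called in any comparison and the most abundant gene of each subfamily. Always named outside them were Nr1i2, Nr1i3, Ahr, Por and Alas1, and further list genes where called; Dbp, Alb, Mup20, Cish, Socs2, Cyp2c50, Cyp1a1 and Cyp2j8 were named after their values were seen. Sequences came from RefSeq (GRCm38.p6) and GENCODE M21, with Cyp2c44 matched through its current name Cyp2c23. No 2 libraries were identical.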

Additional observations from a re-analysis of the deposited data

How the results depend on the processing

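The calls of Cyp2c37 between either aged group and young livers, and of Cyp2d9, Cyp2j9 and Cyp3a13 between PD-0332991 and young livers, held under all 16 alternatives run for each. Cyp2b10 with age was called in 14 of 16, Cyp2c69 with age in 14 of 15, Cyp2c40 with age in 11, Cyp2d13 with age in 8, Cyp2d9 with PD-0332991 in 6, and, between PD-0332991 and young livers, Cyp2c40 in 9 and Cyp2c69 in 4 of 15. Between PD-0332991 and aged untreated livers the count of called genes fell to 0 with no filter, quantile normalization, limma without trend and robust variance, and the 6 libraries alone, and ran from 0 to 3 when single libraries were left out. With median-of-ratios scaling the 1 gene called was Cyp2d13 in place of Cyp2d9. With age the count was 3 with no filter and with the 6 libraries alone, and from 2 to 7 without single libraries (15 to 696 over all genes). Between PD-0332991 and young livers it ran from 4 to 5 without single libraries (151 to 473 over all genes). When scaled without the P450 genes, 3 were higher and 5 lower there, beside 249 higher and 517 lower over all genes. The median over the tested genes between PD-0332991 and aged untreated livers ran from −0.22 (without aged untreated replicate 1) to −0.024. The cause was not tested.

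Same-numbered libraries deviated from their group means with correlations of −0.10, 0.06 and 0.17 between PD-0332991 and aged untreated livers. They were −0.11, −0.22 and −0.16 between aged untreated and young livers, and 0.13, 0.07 and 0.08 between PD-0332991 and young livers. With 3 libraries per group, these values cannot show whether the numbers pair the samples. With the replicate number as a block, 0 genes were called between PD-0332991 and aged untreated livers (60 over all genes, against 147 without it), 4 with age and 7 between PD-0332991 and young livers.

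Signs turned for differences that were called neither as deposited nor under that alternative. Between PD-0332991 and aged untreated livers, Cyp2c29 was at 0.095 with median-of-ratios scaling and 0.0015 when scaled without the P450 genes, and Cyp2e1 at −0.13 and Cyp2r1 at 0.014 with quantile normalization. Between PD-0332991 and young livers, median-of-ratios scaling gave 0.080 for Cyp2c29 and 0.036 for Cyp2e1, and quantile normalization gave −0.15 for Cyp3a11. Cyp2e1 kept its direction there but became a call, at −0.51 (limma, adjusted p = 0.0117), against −0.07 as deposited. Without single libraries, values between PD-0332991 and aged untreated livers ran from −0.19 to 0.17 for Cyp2c29, −0.27 to 0.075 for Cyp2r1, −0.048 to 0.11 for Cyp2j5, −0.028 to 0.13 for Cyp2e1 and −0.46 to 0.11 for Cyp2u1. With age they ran from −0.12 to 0.055 for Cyp2a12, −0.20 to 0.16 for Cyp2c29, −0.25 to 0.12 for Cyp2r1 and −0.51 to 0.057 for Cyp2u1. Between PD-0332991 and young livers they ran from −0.091 to 0.039 for Cyp2c29, −0.34 to 0.017 for Cyp2r1 and −0.033 to 0.34 for Cyp3a11. Where a group was left with 2 libraries, the spread was pooled over all groups. The unknown depth limits statements on genes below 1 TPM.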

Other observations

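A row outside the rule for the 58 genes, Cyp2d37-ps, a Cyp2d pseudogene by its symbol, was chosen after its values were seen. It had 61.0, 66.2 and 58.3 TPM in PD-0332991 livers, 35.8, 39.4 and 71.6 TPM in aged untreated livers and 84.6, 90.9 and 76.2 TPM in young livers. All young libraries lay above all others, and aged untreated replicate 3 lay above every treated library.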
